A study of Mus musculus with 2 samples.

Results

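Collagens are the chains that make up the fibres and sheets of the extracellular matrix, and the genes described here are the collagen chain genes of the mouse. They were chosen by name: every probe whose symbol in the authors' deposited table has the form Col, a type number, the letter a and a chain number. That gave 74 probes of 39 genes among 41174 probes on the array, and 57 probes of 37 genes passed the filter on dim signals among 15266 genes tested. By type number, 11 genes were fibrillar (types 1, 2, 3, 5, 11, 24 and 27), 8 were basement membrane collagens (types 4, 15 and 18) and 20 were of other types.

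RNA came from male gonads of mice of the MCH strain, taken at embryonic day 14.5. Both groups carried the same transgene, labelled Tg-Nanos2 enhancer-3xFLAG-Nanos2-3'UTR, which places FLAG-tagged Nanos2 under a Nanos2 enhancer. Nanos2 is an RNA-binding protein of male germ cells. One group was RNA recovered with Anti-FLAG M2-Agarose (FLAG IP) and the other was input RNA, with 2 one-colour Agilent arrays in each, which the series calls biological duplicates. A precipitate from gonads without the transgene was not analysed here, so RNA held by the beads alone was not measured. The question was which transcripts took a larger or smaller share of the FLAG IP than of the input. The genes were proposed with this difference in view, so their differences are a description. The calls counted below come from the adjusted p of a fit over all genes, are set beside the same share of all genes, and are no test of the collagen genes.

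A collagen molecule is a rope of 3 chains, and which chains assemble depends on the type. Fibrillar collagens pack side by side into the fibres of connective tissue. Type IV collagen forms the mesh of basement membranes, the sheets that in the fetal testis surround the cords of Sertoli and germ cells and the blood vessels. The other types coat fibrils, form beaded filaments or span the cell membrane. In the gonad, collagen genes are known mainly as genes of the interstitial, vascular and Sertoli cells.

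The FLAG IP arrays were not equally bright. The input arrays had 75th percentiles of 1026 and 1038 intensity units, whereas FLAG IP replicates 1 and 2 had 55.7 and 608. Spots well above background made up 66.0% and 70.2% of the input arrays, and 42.7% and 65.4% of FLAG IP replicates 1 and 2. Levels below are log2 signals relative to the 75th percentile of the array, so they compare arrays for 1 gene and not genes with each other. Over all genes tested, the median SD between the arrays of a group was 0.06 in the input against 0.30 in the FLAG IP. The number of arrays, 4, limits the precision of what follows. Differences are log2 FLAG IP minus input ± the SE from limma, with n = 2 arrays per group throughout.

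Relative to the 75th percentile of each array, most collagen genes stood lower in the FLAG IP than in the input. Of the 37 genes tested, 28 were called lower and 1 higher by limma (adjusted p below 0.05), leaving 8 without a call. Over all genes tested, 25.4% were called lower and 28% higher. The median difference of the collagen genes was -2.10, against 0.07 for all genes tested. The range ran from -3.68 to 1.08, with quartiles of -2.78 and -1.03. Both FLAG IP arrays lay below both input arrays for 31 of the 37 genes and above them for 3, against 38.2% and 42% of all genes tested. Both FLAG IP arrays were at least 2-fold below the input mean for 26 genes, against 18.5% of all genes tested. The input is a bulk sample of the gonad, in which fewer cells of a type and less RNA per cell cannot be told apart. The FLAG IP is RNA recovered with the antibody, so a lower value there gives neither cell number nor RNA per cell.

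**Figure D1:**
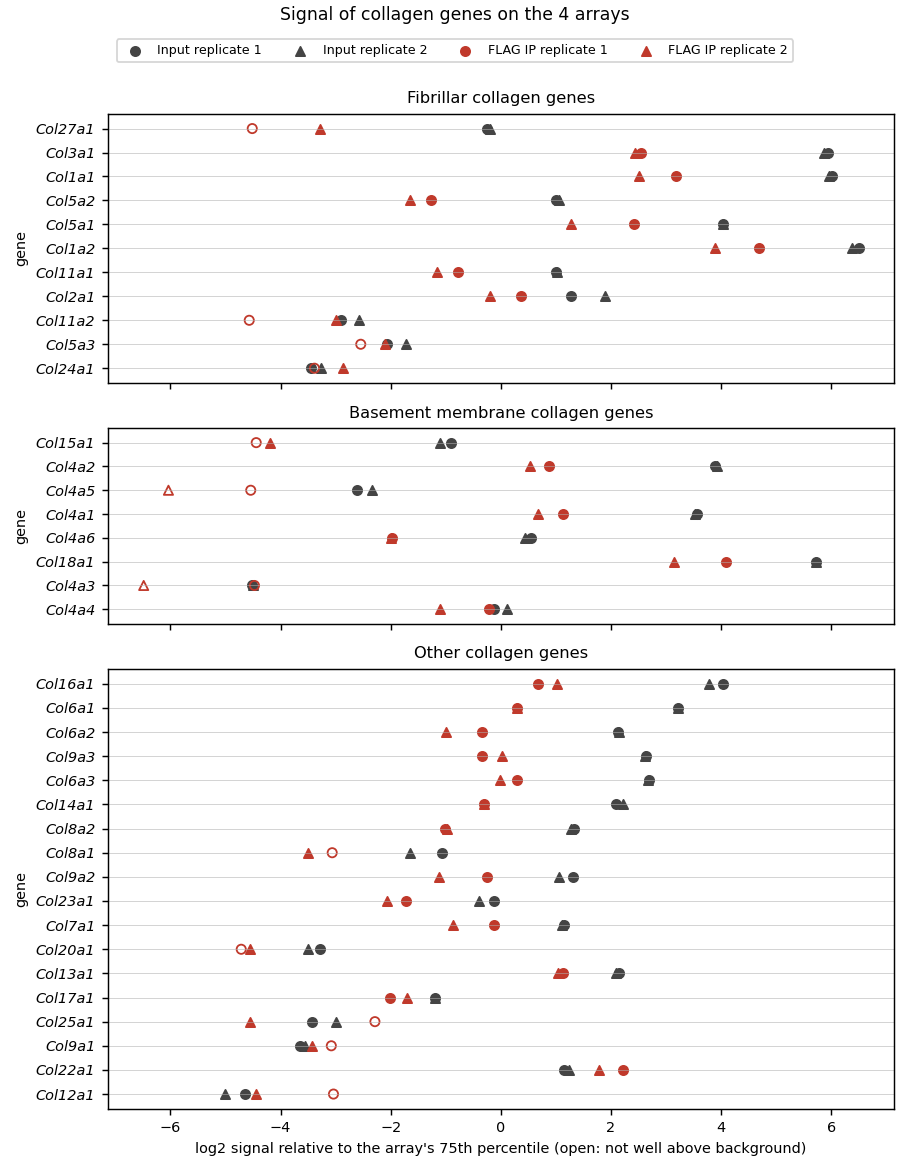
Log2 signal of the 37 tested collagen genes on each of the 4 arrays, relative to the 75th percentile of the array, with genes ordered within each class by their difference. Input arrays are dark, FLAG IP arrays are red, and open symbols are FLAG IP spots not well above background; in 31 genes both red symbols lie left of both dark ones.

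The dim signals set a limit on part of the genes. Of the 37 genes, 25 were well above background on all 4 arrays, and 23 of these were called lower, against 25.6% of all genes measured that well. The median of those 25 genes was -2.30. A further 10 genes were below that mark on FLAG IP replicate 1 alone and 2 on both FLAG IP arrays, and 5 of these 12 were called lower. These 12 passed the filter through the input alone, so a difference was built into their choice. Col10a1 and Col19a1 did not enter: the probe of Col10a1 was well above background on input replicate 1 only, and the 3 probes of Col19a1 on no array.

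The fibrillar collagens of connective tissue were among the lowest. Type I collagen, the main collagen of fibres, is made of the chains of Col1a1 and Col1a2. Col1a1 read 6.0 and 5.95 on the input arrays and 3.18 and 2.51 on the FLAG IP arrays. Its difference was -3.13 ± 0.28, or 8.74-fold lower. Col1a2 read 6.49 and 6.38 in the input against 4.69 and 3.89 in the FLAG IP, a difference of -2.15 ± 0.32 or 4.43-fold lower. For both chains the FLAG IP arrays lay apart from the input, with replicate 2 the lower. Col3a1, whose collagen is laid down with type I in soft tissue, read 5.94 and 5.86 in the input against 2.53 and 2.43. At -3.42 ± 0.16 (10.7-fold lower) it had the smallest SE of the fibrillar genes, and its FLAG IP arrays nearly coincided.

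The fibrillar chains that start and regulate fibrils stood lower as well. Type V collagen nucleates type I fibrils. Col5a2 read 0.99 and 1.06 in the input against -1.27 and -1.65 in the FLAG IP, a difference of -2.49 ± 0.21. Col5a1 differed by -2.19 ± 0.43, with FLAG IP values of 2.41 and 1.28 that were further apart than for most genes. Col11a1, a chain of the cartilage fibril collagen that also partners type V, differed by -1.97 ± 0.20. After normexp background correction Col5a2 and Col11a1 stood at -2.11 and -1.945 relative to all genes and were not called. Col5a1 was not called with no filter on dim probes. Col27a1, a long fibrillar chain of cartilage, read -0.25 and -0.20 in the input against -4.51 and -3.29 in the FLAG IP (-3.68 ± 0.46). Only FLAG IP replicate 2 was well above background, where Col27a1 stood at -3.07 from the input mean, against -3.47 for Col3a1 and -3.46 for Col1a1. After normexp background correction it stood at -1.54 relative to all genes and was not called.

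Of the fibrillar genes, 3 were not called and 0 were called higher. Col24a1 read -3.45 and -3.26 in the input against -3.39 and -2.86 in the FLAG IP (0.23 ± 0.25), so the groups overlapped. Col5a3, the least widespread type V chain, stood at -0.43 ± 0.25, from -2.07 and -1.72 to -2.55 and -2.10. Col11a2 stood at -1.04 ± 0.58, with -2.90 and -2.58 in the input against -4.57 and -2.99 in the FLAG IP. Of their FLAG IP signals, those on replicate 2 alone were well above background. In all, 8 of 11 fibrillar genes were called lower, with a median of -2.15.

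Of the 8 basement membrane genes, 6 were called lower and 0 higher, with a median of -2.56. The common type IV molecule joins 2 chains of Col4a1 and 1 of Col4a2. Col4a1 read 3.56 and 3.53 in the input against 1.13 and 0.68 in the FLAG IP, a difference of -2.64 ± 0.22 or 6.24-fold lower. Col4a2 read 3.88 and 3.93 against 0.88 and 0.53, a difference of -3.20 ± 0.20 or 9.16-fold lower. All 4 tested probes of this gene pair were called lower, between -2.64 and -3.31, and neither gene's groups overlapped.

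Col4a1 and Col4a2 lie head to head on chromosome 8 and are read in opposite directions from a common stretch, which is why the sequence over their starts is shown. In the RefSeq promoter table of GRCm38.p6 the annotated starts are the first and last of 22 bases, shown in capitals, so that the transcripts overlap at their first bases. The 30 bases shown are chr8:11312801-11312830, on the plus strand.
Col4a1 and Col4a2 starts: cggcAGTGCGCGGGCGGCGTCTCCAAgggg
The capitals hold the letters GGGCGG, the GC box to which factors of the Sp family are known to bind. On either strand, GGGCGG was found between 250 bases before and 50 bases after the start in 20 of the 34 collagen promoters in that table, against 35.7% of all 32851 promoters of the same length. Counted by gene, with 1 or more promoters each, these were 19 of 31 collagen genes, against 38.2% of 27025 genes. A match of letters is a description and not a binding site.

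The other type IV chains form the mesh of more specialised membranes, such as that of the kidney filter. Col4a6 stood 5.60-fold lower at -2.48 ± 0.16, from 0.54 and 0.44 in the input to -1.98 and -2.00 in the FLAG IP. Its 3 tested probes ran from -2.48 to -1.01, the last not called. After normexp Col4a6 stood at -1.70 relative to all genes and was not called. Col4a5 read -2.62 and -2.35 in the input against -4.54 and -6.04 in the FLAG IP, where neither array was well above background. With each FLAG IP value raised to the lowest signal well above background on its array, Col4a5 stood 3.69-fold lower than the input. On replicate 1 that lowest signal was -2.77, near the input mean of -2.49, so this figure rests on replicate 2. The call was absent after normexp correction, where Col4a5 stood at -0.22 relative to all genes, and with no filter on dim probes. Col4a3 read -4.53 and -4.50 against -4.47 and -6.49, with both FLAG IP values below that mark, and no fold is given. Col4a4 stood at -0.66 ± 0.36, from -0.12 and 0.11 to -0.22 and -1.11, and was not called. The pair Col4a3 and Col4a4 thus held the 2 basement membrane genes that were not called.

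Col15a1 and Col18a1 encode the related collagens XV and XVIII, which carry sugar chains and lie in or beside basement membranes. Col15a1 read -0.92 and -1.11 in the input against -4.44 and -4.19 in the FLAG IP, a difference of -3.30 ± 0.19, with FLAG IP replicate 1 not well above background. It stood at -1.75 with the mean of its probes and at -1.41 relative to all genes after normexp, and was called in neither. Col18a1, whose end fragment is endostatin, read 5.73 and 5.72 against 4.09 and 3.15, a difference of -2.10 ± 0.37 or 4.30-fold lower. Its FLAG IP arrays were 0.67 apart as an SD, against 0.002 for its input arrays.

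**Figure D2:**
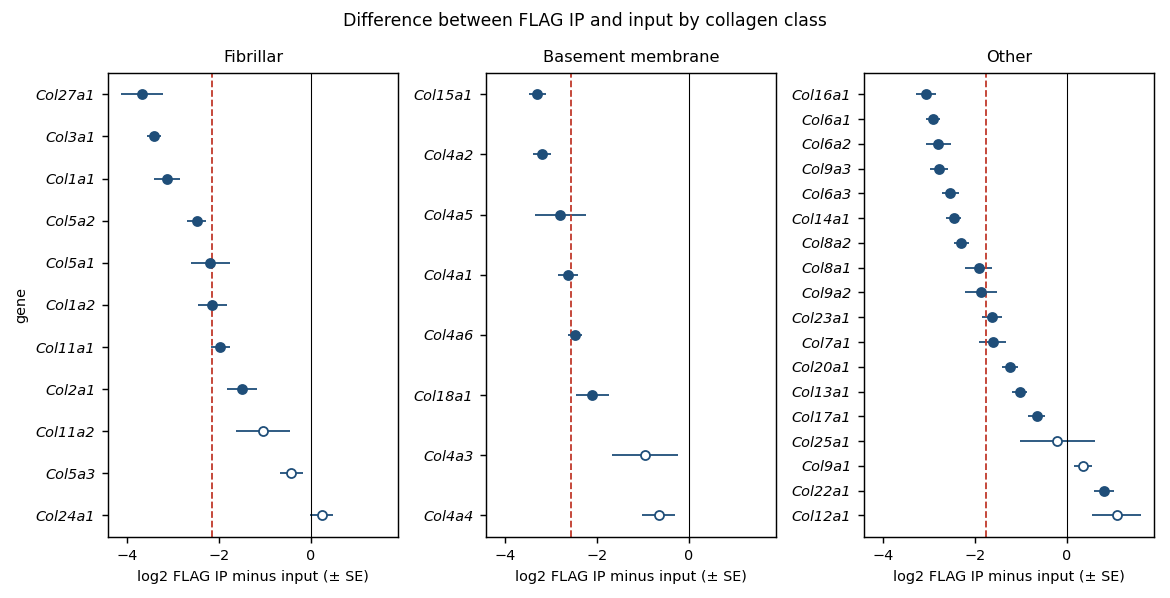
Log2 difference, FLAG IP minus input, with the SE from limma, for the tested fibrillar (11), basement membrane (8) and other (18) collagen genes. Filled points were called at an adjusted p below 0.05, open points were not, and the dashed line is the class median of -2.15, -2.56 or -1.76.

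The other collagen genes had the widest range. Of 18 tested, 14 were called lower and 1 higher, with a median of -1.76. Type VI collagen forms beaded filaments in most connective tissue and is built from the chains of Col6a1, Col6a2 and Col6a3, which all stood lower. Col6a1 read 3.21 on both input arrays and 0.29 and 0.30 in the FLAG IP, a difference of -2.92 ± 0.15 or 7.55-fold lower. Col6a2 read 2.12 and 2.14 against -0.35 and -0.99, a difference of -2.80 ± 0.27. Col6a3 read 2.69 and 2.67 against 0.29 and -0.02, a difference of -2.55 ± 0.19. The groups did not overlap for any of the 3 chains.

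The FACIT collagens sit on the surface of fibrils. Of 8 tested, 5 were called lower and 1 higher, with a median of -1.56. Col16a1 read 4.03 and 3.78 in the input against 0.67 and 1.02 in the FLAG IP, a difference of -3.07 ± 0.22 or 8.37-fold lower. Col9a3, a chain of the cartilage collagen IX, read 2.63 and 2.61 against -0.34 and 0.01, a difference of -2.78 ± 0.20. Both genes kept the FLAG IP arrays well apart from the input. Col14a1 and Col9a2 differed by -2.47 ± 0.16 and -1.88 ± 0.36, and Col9a2 lost its call under 4 of the alternatives, normexp among them. Col20a1 differed by -1.24 ± 0.18 and was well above background in the FLAG IP on replicate 2 only. It stood at 0.42 relative to all genes after normexp background correction, and lost its call under 6 of the alternatives.

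Col22a1, a collagen of tissue junctions such as that of muscle and tendon, was the 1 gene called higher. It read 1.14 and 1.24 in the input against 2.21 and 1.78 in the FLAG IP, a difference of 0.81 ± 0.22 or 1.75-fold. It lost its call under 8 of the alternatives, among them leaving out either input array, and the mean of its probes stood at 0.06. Col12a1, which coats type I fibrils, stood at 1.08 ± 0.53, from -4.64 and -5.01 in the input to -3.04 and -4.45, and was not called. Of its FLAG IP signals that on replicate 2 alone was well above background, at 0.37 from the input mean, against 0.59 for Col22a1. Col9a1 stood at 0.35 ± 0.20, from -3.65 and -3.55 to -3.08 and -3.43, with the same limit on FLAG IP replicate 1. Among the 37 genes, on the probe that stood for each, both FLAG IP arrays lay above both input arrays for these 3 FACIT genes only. The second probe of Col2a1 did so as well. So did the brighter probe of Col6a4, a collagen gene that the choice by name did not take.

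The remaining types were lower or near the input. Col8a2 and Col8a1, chains of a short network collagen of the vessel wall and the cornea, differed by -2.30 ± 0.16 and -1.92 ± 0.30, the latter with FLAG IP replicate 1 not well above background. Col7a1, which forms anchoring fibrils below epithelia, differed by -1.62 ± 0.30. Of the transmembrane collagens, Col23a1 differed by -1.64 ± 0.22, Col13a1 by -1.03 ± 0.16 and Col17a1, a hemidesmosome protein, by -0.66 ± 0.19. The calls of Col7a1, Col13a1 and Col17a1 were absent after normexp and without either input array, and those of Col8a1 and Col23a1 after normexp and without input replicate 1. The call of Col17a1 was lost under 8 of the alternatives. Col25a1 stood at -0.21 ± 0.82, with FLAG IP values of -2.29 and -4.56 on either side of the input values of -3.43 and -2.99, and replicate 1 not well above background. The transmembrane genes had a median of -0.85 and the beaded filament genes of -2.80.

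Chains of one molecule were set side by side. Col6a1 and Col6a2, which are neighbours on chromosome 10, had differences 0.11 apart, and the sign of that gap was not the same on the 2 FLAG IP arrays. Col5a1 and Col5a2 were 0.30 apart, again without a common sign. Col4a1 stood above Col4a2 by 0.61 on FLAG IP replicate 1 and by 0.50 on replicate 2. Col1a1 stood below Col1a2 by -1.04 and -0.92 on the same arrays, but the 3 probes of Col1a1 alone spanned 1.43. Among the type IX chains, Col9a1 stood above Col9a2 by 2.49 and above Col9a3 by 2.78 on FLAG IP replicate 2, and it was not well above background on replicate 1. Another pair of neighbours, Col3a1 and Col5a2 on chromosome 1, was 0.93 apart. These are gaps between probes of different genes, described without a test.

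The probes of 1 gene gave a check that does not depend on which probe stood for it. Of the 57 tested collagen probes, 41 were called lower and 2 higher when every probe was fitted on its own, against 23.4% lower and 24.6% higher of all 23283 probes. Of 17 genes with more than 1 tested probe, 15 had all probes below 0 and 10 had all of them called lower. The 2 tested probes of Col6a2 differed by 0.06, those of Col4a2 by 0.11, those of Col4a1 by 0.12 and the 3 of Col23a1 by 0.17. Thus for several genes the probes nearly coincided. They were read on the same arrays and are no separate support.

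Col2a1 and Col22a1 had probes on both sides of 0. Col2a1 encodes the main collagen of cartilage. Its brighter probe read 1.28 and 1.89 in the input against 0.36 and -0.19 in the FLAG IP (-1.50 ± 0.33), and a second read -2.24 and -2.00 in the input against -0.49 and -0.30 in the FLAG IP (1.73 ± 0.19). These were called in opposite directions with all 4 arrays well above background, and the mean of both stood at 0.11, so no direction is given for Col2a1, although its brighter probe is among the 28 called lower. The second probe of Col22a1 stood at -0.69 ± 0.20, from -1.55 and -1.32 to -1.99 and -2.27, opposite to the first. The second probe of Col15a1 stood at -0.19 ± 1.43 with both FLAG IP values below the background mark, and the second of Col27a1 at -1.99 ± 0.22. Which part of each transcript the probes read was not analysed here.

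**Figure D3:**
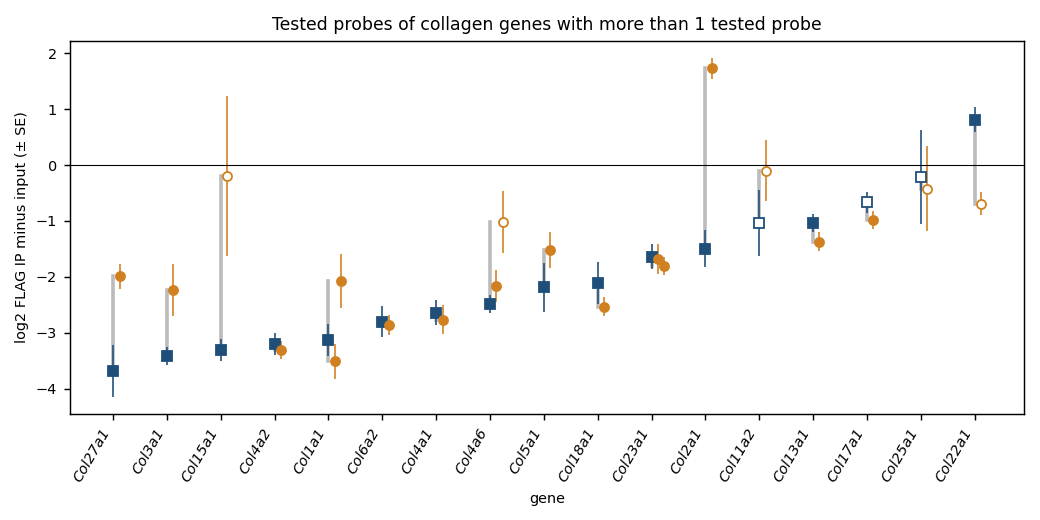
Log2 difference, FLAG IP minus input, with the SE from limma, for each tested probe of the 17 collagen genes with more than 1. Squares are the probes that stand for their gene, circles are the others, filled symbols were called in the fit of every probe, and Col2a1 and Col22a1 have probes on both sides of 0.

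FLAG IP replicate 2 lay below replicate 1 for 25 of the 37 genes (67.6%), and for 57.8% of all genes tested. The median collagen difference was -1.75 on replicate 1 and -2.32 on replicate 2. For all genes tested these medians were 0.16 and -0.003. For the fibrillar genes the medians were -1.78 and -2.54, for the basement membrane genes -2.24 and -2.72, and for the other genes -1.45 and -2.07. The order of the 3 class medians was the same on both arrays, but the classes lay closer to each other than the spread of their members. After normexp the order changed, to -1.945 (fibrillar), -1.56 (basement membrane) and -1.68 (other), relative to all genes. It also changed among genes well above background on all 4 arrays, to -2.19, -2.48 and -2.30. The part that the unequal brightness of the arrays has in the lower values of replicate 2 was not tested.

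Genes that make and hold collagen were followed in 6 lists. Of 95 genes listed, 89 were tested, and limma called 55 lower and 9 higher. Their median was -1.41. Of all genes tested, 25.4% were called lower and 28% higher. Of the 89, 66 were well above background on all 4 arrays, and 44 of these were called lower, against 25.6% of all genes measured that well. The rest of the 89 passed the filter through the input alone, so a difference was built into their choice. Of 14 hydroxylation and glycosylation genes, 9 fell and 0 rose. Among them P3h3 and P3h4, members of the prolyl 3-hydroxylase family, differed by -2.46 ± 0.16 and -2.35 ± 0.20. P3h1, the hydroxylase that works with the protein of Crtap, differed by -2.32 ± 0.38. The prolyl and lysyl hydroxylase genes P4ha1 and Plod2 stood at -0.18 ± 0.18 and 0.37 ± 0.20 and were not called.

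Of 13 folding and export genes, 7 were called lower and 3 higher (53.8% and 23.1%). Beside these and the next list, 25.4% of all genes tested were called lower and 28% higher. The cyclophilin gene Ppib differed by -2.50 ± 0.30, the proline isomerase genes Fkbp10 and Fkbp14 by -2.30 ± 0.26 and -2.12 ± 0.17. Mia2, whose protein helps load collagen at endoplasmic reticulum exit sites, rose by 1.05 ± 0.22, and Tmem39a by 0.83 ± 0.16. Of 12 tested cleavage and crosslinking genes, 8 fell and 1 rose, with a median of -2.08. The crosslinking oxidase genes Loxl2 and Lox differed by -3.43 ± 0.22 and -3.23 ± 0.17, the latter with 1 of the FLAG IP arrays well above background, and the procollagen protease gene Adamts2 by -3.08 ± 0.16. Pcolce2, an enhancer of procollagen cleavage, rose by 1.56 ± 0.28, whereas its paralogue Pcolce differed by -2.19 ± 0.35. Loxl4 stood at 0.06 ± 0.81 and was not well above background on either FLAG IP array.

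The partners of the finished fibre mostly stood low. Of 20 genes for fibril partners, 16 fell and 0 rose, against 25.4% and 28% of all genes tested, with a list median of -1.73. The fibrillin gene Fbn1 differed by -2.86 ± 0.22, the fibronectin gene Fn1 by -2.78 ± 0.30 and the matrilin gene Matn2 by -2.74 ± 0.21. At the other end, Comp stood at -0.05 ± 0.41 and was not called, and the proteoglycan gene Prelp fell by 0.95.

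Of 19 tested basement membrane partners, 10 fell and 3 rose (52.6% and 15.8%), against 25.4% and 28% of all genes tested. The list median was -1.12. The laminin genes Lama2 and Lama4 and the nidogen gene Nid1 differed by -3.0 ± 0.34, -2.61 ± 0.21 and -2.61 ± 0.27. Npnt stood at 1.24 ± 0.64 and was not called. Lamb3, which encodes a chain of an epithelial laminin, rose by 1.12 ± 0.18, with FLAG IP values of -2.76 and -3.04 against -4.02 on both input arrays, and 1 of the FLAG IP values was well above background.

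Of 11 tested collagen receptors, 5 fell and 2 rose (45.5% and 18.2%), against 25.4% and 28% of all genes tested. The list median was -0.56. The receptor kinase gene Ddr2 differed by -3.27 ± 0.55, the endocytic receptor gene Mrc2 by -2.84 ± 0.20 and the integrin gene Itga1 by -1.19 ± 0.32. Ddr2 and Itga1 were well above background on 1 FLAG IP array each. Lair1, an inhibitory receptor of immune cells, rose by 2.82 ± 0.21 and Adgrg6, an adhesion receptor that binds type IV collagen, by 1.83 ± 0.29. Lair1 read -4.08 and -4.03 in the input against -1.44 and -1.04 in the FLAG IP, so its groups did not overlap.

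**Figure D4:**
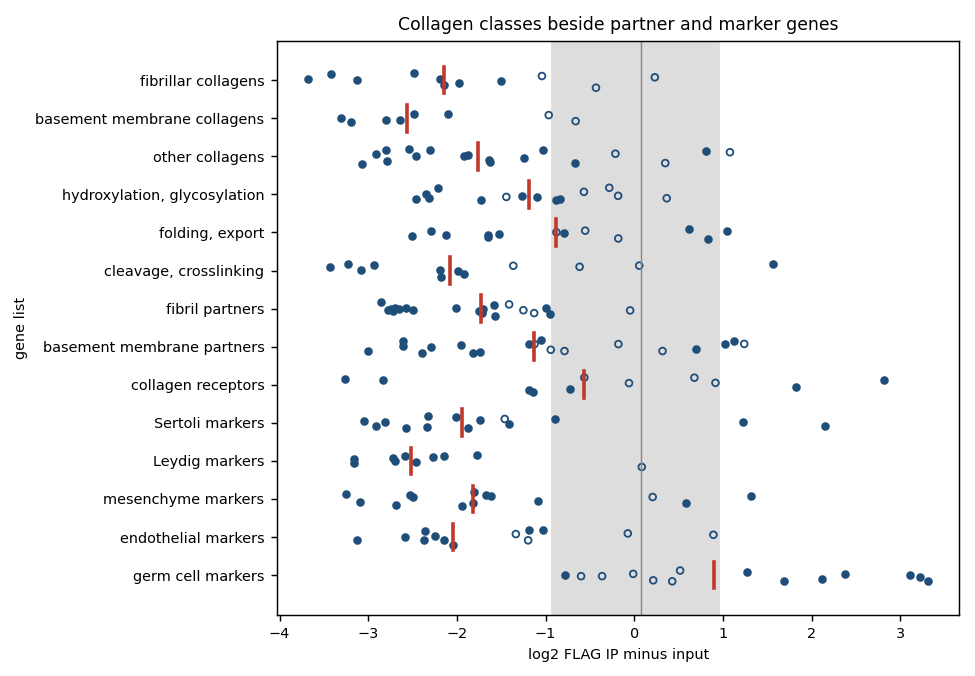
Log2 difference, FLAG IP minus input, of each tested gene in the 3 collagen classes, 6 lists of collagen partner genes and 5 lists of cell markers. Filled points were called, red bars are list medians, and the grey band spans the quartiles of all genes tested, -0.93 to 0.96; the germ cell median is 0.90, while the medians of the other lists and classes lie below 0.

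Markers of the cells that make collagen moved with the collagen genes. The tested Sertoli markers had a median of -1.94, and 11 of 14 fell and 2 rose. Of 14 mesenchyme markers likewise 11 fell and 2 rose (median -1.81). Of 10 Leydig markers 9 fell and 0 rose, and of 13 endothelial markers 9 fell and 0 rose, with medians of -2.52 and -2.04. The germ cell markers had a median of 0.90, and 7 of 14 rose while 1 fell. Among all genes tested, 25.4% were called lower and 28% higher, with a median of 0.07. Markers of each of these cell types were well above background in the input, and all but 1 of those listed were tested.

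The summed linear signal of each list, in units of the 75th percentile of the array, weights the brightest probes most and so need not follow the median. For the collagen genes it was 385 and 371 on the input arrays and 87.6 and 57.7 on the FLAG IP arrays. For the mesenchyme markers it was 234 and 222 against 53.1 and 43.2, for the Sertoli markers 197 and 178 against 38.7 and 35.6, and for the endothelial markers 19.9 and 16.1 against 10.6 and 6.56. The Leydig sums were 184 and 170 against 67.7 and 40.1. The germ cell sums went the other way, from 103 and 110 to 193 and 215. The part of these cells in the collagen values was not tested.

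In the authors' deposited table, which gives a ratio of FLAG IP to input for each probe, 54 of the 74 collagen probes (73.0%) had a ratio below 1, against 35.8% of all 41174 probes. The median ratio in the authors' deposited table was 0.339 for the collagen probes and 1.53 for all probes. For Col1a1, Col3a1 and Col4a2 the authors' deposited table holds 0.106, 0.0861 and 0.101, and for Col22a1 it holds 1.61.

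Fewer collagen genes were called with another background correction. After normexp correction, 14 were called lower and 0 higher, against 9.16% and 8.33% of all genes, with a collagen median of -1.81 once the shift of all genes was taken off. Of the partner genes, 24 were called lower and 2 higher after normexp. Without input replicate 1, 36 partner genes were called lower and 2 higher, against 10.1% and 9.37% of all genes. With 1 array left out the number of collagen genes called lower changed with that of all genes, and the collagen median ran from -2.32 to -1.75. With no scaling of the arrays, limma called 0 genes of any kind. At an unadjusted p under 0.05 in that fit, 29 collagen genes were lower, beside 4047 of all 15266 genes lower and 0 higher. The median difference of all genes was then -2.41. Of the 28 collagen genes called lower, 13 lost the call with no scaling and under no other alternative, among them the chains of types I, III and VI and Col4a1, Col4a2 and Col18a1.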

How the data were processed

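The authors deposited 1 scanner file per array. Per the submitters' processing notes the software was Agilent Feature Extraction 9.5. Its processed signal is an intensity on a linear scale, background-subtracted per the file headers. The authors also deposited a table that gives each probe a raw intensity per group, their ratio (FLAG IP to input) and a t-test p-value. The raw intensity agreed within 1% with the mean of the group's 2 arrays for 99.9% (input) and 99.8% (FLAG IP) of probes, so it is pooled. The deposited p-value was not used. No further aligner or build is involved, and the number of per-sample columns left unused was 0.

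Each processed signal was divided by the 75th percentile of its array (43379 non-control spots) and put on the log2 scale. Spots marked as outliers were left out and spots of a probe averaged. Probes were kept where both arrays of either group were well above background, and the brightest passing probe stood for its gene. Gene names were taken through the gene ID from RefSeq's table of GRCm38.p6 for 31004 probes, from an older symbol for 309 and from the file for 1263, while 8598 had none. Models were fitted without a block by lmFit and eBayes of limma 3.58.1 in R 4.3.3. P-values were two-sided and adjusted over 15266 genes by Benjamini-Hochberg, with 2 residual degrees of freedom. P-values measure the spread between the arrays given. Figures were drawn in matplotlib 3.10.9.

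On simulated arrays for these 15266 genes, the fit called 0 of 50 genes changed 2-fold, 7 of 50 changed 4-fold, 35 of 50 changed 8-fold, 40 of 50 changed 16-fold, and 0 unchanged genes. Far fewer genes changed there than were called in the data, so these shares are no estimate for it.

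The members and gene lists were chosen with earlier results of these data known. Values on each array are given for the type I, III, IV and VI chains Col1a1, Col1a2, Col3a1, Col4a1, Col4a2 and Col6a1 to Col6a3, for Col15a1 and Col18a1, for the 4 lowest and 3 highest differences of each class, and for genes whose probes disagree. Of partner lists, the 3 lowest and 2 highest differences are named, and any other partner or marker was chosen after its values were seen. Protein sequences and probe sequences were not used here.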

Additional observations from a re-analysis of the deposited data

How the results depend on the processing

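The direction of the 3 class medians held under every alternative run: normexp background correction (offset 50, on the median signal), quantile normalization, median centring, no scaling, 2 other filters on dim probes, the mean of probes, every probe, trend and robust settings in eBayes, outlier spots kept, the replicate block, the slide block, and each array left out. Normexp moved the median of all genes by 0.31, median centring by -0.13 and no scaling by -2.49, so values there are relative to all genes. Median centring, no scaling, the eBayes settings and the replicate block could not change these class medians, so they are no check on them. The basement membrane median was -1.56 after normexp and -2.10 with the mean of probes, and that of other collagens was -2.30 when a gene had to be well above background on each of the 4 arrays. After normexp, 14 collagen genes were called lower and 0 higher, with 24 and 2 partner genes. With no scaling, limma called 0 collagen and 0 partner genes in either direction, and 0 of all genes. At an unadjusted p under 0.05 in that fit, 29 collagen genes were lower, beside 4047 of all 15266 genes lower and 0 higher. The count of collagen genes called higher was 0 with the mean of probes, no filter or the slide block, and 2 with every probe. Partner genes called higher were 5 with no filter, and 2, beside 36 lower, with the slide block, which is the same fit as without input replicate 1 because that array is alone on its slide. Within the other slide, which holds 3 arrays, the values are thus those of the slide block. The replicate block gave 27 collagen genes lower and 1 higher; the same-numbered arrays' deviations correlated at 0.05, so the numbers were not taken to pair them. Leaving out 1 array, with the lone array assumed to vary like the other group, gave 21 to 31 collagen genes lower and 0 to 4 higher, and 36 to 71 partner genes lower and 2 to 14 higher. Without either input array 0 collagen and 2 partner genes were called higher, without FLAG IP replicate 1 these were 2 and 9, and without FLAG IP replicate 2 they were 4 and 14. Among all genes tested, too, more were called in both directions without a FLAG IP array and fewer without an input array. The counts are therefore not compared between these fits. With 1 array left out, the class medians ran from -2.54 to -1.78 (fibrillar), -2.72 to -2.24 (basement membrane) and -2.07 to -1.45 (other).

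Relative to all genes after normexp, Col4a3 stood at 0.78, Col5a3 at 0.19, Col11a2 at 0.60, Col20a1 at 0.42 and Col25a1 at 0.39, each opposite to its reported sign. Col2a1 stood at 0.11 with the mean of probes. Without input replicate 2, Col25a1 stood at 0.0055. Between leaving out FLAG IP replicate 1 and FLAG IP replicate 2, Col25a1 ran from -1.35 to 0.92, Col4a3 from -1.97 to 0.041 and Col24a1 from 0.49 to -0.028. Of these, Col20a1 and Col2a1 had been called. The cause was not tested. On FLAG IP replicate 1 the signal of dim genes was near background, so the size of their differences is uncertain.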

Other observations

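The RefSeq gene table names 3 further collagen genes that the authors' deposited table lists under older symbols, so the symbol rule did not take them. Col26a1 read 3.71 and 3.61 on the input arrays and 1.98 and 1.47 on the FLAG IP arrays, a difference of -1.94 ± 0.24 that was called lower. Col6a4, a type VI chain, stood at 0.45 ± 0.18 on its brighter probe and 0.24 ± 0.77 on the other, and neither was called. The probe of Col6a6 was well above background on no array.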
